A study of Mus musculus with 13 samples.

Results

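Leptotene/zygotene spermatocytes (LZ), the germ cells that have just entered meiosis, were compared with spermatogonia (SG), the mitotic cells from which they arise. The members are 3 of the 13 small RNA libraries of the series, chosen by the stage in their labels: LZ biological replicates 1 and 2 and SG replicate 1. The cells came from C57BL6/J mice at postnatal weeks 3 to 4 and were isolated by flow sorting on the DNA dye Hoechst-33342, which separates stages by DNA content and chromatin. The labels give no genotype. Wild type was read from the naming of these libraries and from the methods of the study, and the Pld6 knockout libraries of the series were not used. Total RNA of the sorted cells was made into small RNA libraries. Each value stands for all cells of a gate, and fewer cells of a type and less RNA per cell cannot be told apart. The SG list held 13285425 reads, LZ replicate 1 held 29956080 and LZ replicate 2 held 17458652. With 1 SG library the spread among SG samples is unknown, so no test was made and no p-value is given, and a difference is counted only when the LZ libraries were both above or both below SG. The pachytene/diplotene library (PD, 1 library, 13290381 reads), the next stage of meiosis, is quoted beside results that it bears on.

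PIWI-interacting RNAs (piRNAs) are germline small RNAs that guide PIWI proteins to complementary transcripts. They are longer than microRNAs, are made from single-stranded precursors, and mostly begin with U. In the mouse, piRNAs of mitotic and early meiotic cells come largely from retrotransposons and messenger RNA 3′ ends and are bound mainly by PIWIL2 (MILI). Pachytene spermatocytes transcribe long noncoding precursors that yield an abundant second population, bound by PIWIL2 and by PIWIL1 (MIWI), which holds somewhat longer piRNAs. The entry into meiosis lies between these phases.

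Sequences of 24 to 33 nt that begin with U and match the sense strand of a single annotated gene show the change best. The most read one of each of the 5 most abundant genes that rose, and one from a gene that fell, are printed 5′ to 3′ as read in the libraries, with the first base, the characteristic U of piRNAs (written T), in capitals.
Gm49794: Tcactctcggaacttgtatcttgtg
Gm10505: Taattactttgcattaggggactgt
Gm21269: Tgtgaatttcaactgttggctccacaggg
1700001L05Rik: Tagtagactggctcttgatggtttgt
1700029M20Rik: Taccatacttatcctagactggctcttc
Ddx11: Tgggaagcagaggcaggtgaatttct

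The Gm49794 sequence lies in an exon at chr17:27355728-27355752 on the plus strand (GRCm38). It was read at 5.34 RPM (reads per 1000000 reads of the library) in SG, 188.1 RPM in LZ replicate 1, 77.6 RPM in LZ replicate 2 and 481.5 RPM in PD. The Gm10505 sequence, at chr17:27344278-27344302 on the plus strand, stood at 1.43 RPM in SG against 48.9 and 29.96 RPM in LZ, and at only 11.1 RPM in PD. Both therefore rose over 20-fold on the mean of the LZ libraries, but only the first was higher again in PD. The Gm21269 sequence, at chr7:73824994-73825022 on the plus strand, went from 1.28 to 57.3 and 22.6 RPM. The sequence of 1700001L05Rik, at chr15:83355606-83355631 on the minus strand, was already at 17.54 RPM in SG and reached 110.5 and 61.5 RPM in LZ. The sequence of 1700029M20Rik, at chr4:135627914-135627941 on the plus strand, went from 1.35 to 30.4 and 11.2 RPM. The Ddx11 sequence moved the other way. It matched the 3′ untranslated region of the DNA helicase gene Ddx11 at chr17:66151767-66151792 on the plus strand. A repeat inside the transcript can place such a read in the wrong gene, and its origin was not tested. The sequence was at 19.7 RPM in SG, 8.11 and 10.8 RPM in LZ and 0.0752 RPM in PD.

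The reads became longer between SG and LZ, and the gain was not confined to one length. The most frequent length in SG was 22 nt, the size of microRNAs, with 12.7% of reads, against 6.89% and 8.79% in LZ replicates 1 and 2. At 26 nt the share was 4.75% in SG, 8.25% in LZ replicate 1 and 7.10% in LZ replicate 2. At 30 nt it was 2.098%, 4.53% and 3.51%, and in PD, where 30 nt was the most frequent length, 19.8%. Every length from 25 to 33 nt was higher in both LZ libraries, and every length from 21 to 23 nt was lower. Over all 38 lengths from 11 to 48 nt, 16 were higher in both LZ libraries, 11 were lower and 11 were split. Among the 24 to 33 nt reads, the classes of 25 to 28 nt and of 29 to 32 nt kept similar weights. The shorter class made up 57.6% in SG and 59.0% and 59.9% in LZ, against 34.6% in PD. The longer class made up 25.9% in SG and 29.7% and 27.7% in LZ, against 61.0% in PD. The size distribution of LZ piRNA-sized reads thus lay close to that of SG and far from that of PD.

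**Figure D1:**
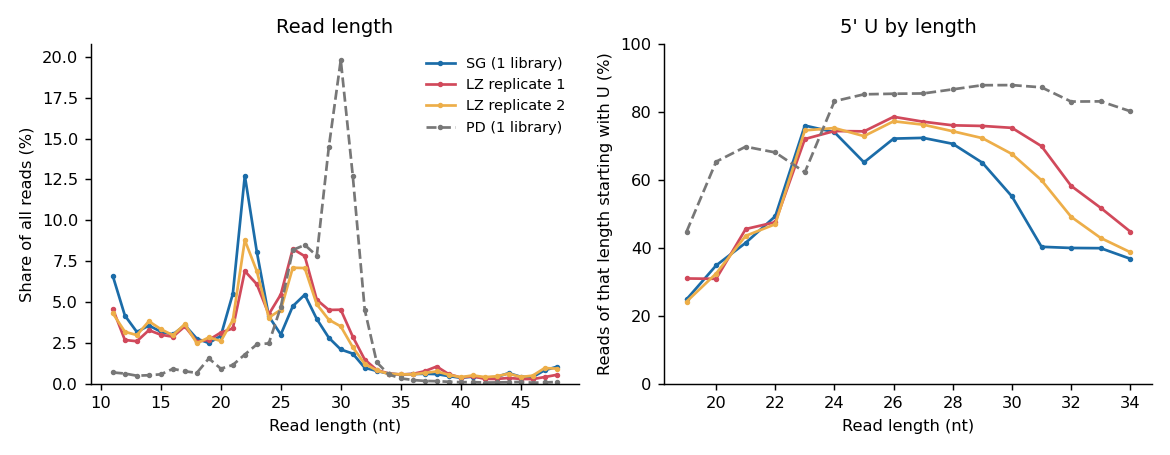
Share of all reads at each length in nt (left) and share of the reads of that length that begin with U (right, 19 to 34 nt), for SG, both LZ replicates and PD (dashed), 1 line per library. The LZ lines lie above SG from 25 to 33 nt, PD peaks at 30 nt, and the widest gap in U between SG and LZ is at 31 nt.

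The share of reads beginning with U was higher in both LZ libraries at each length from 24 to 33 nt, and over reads the gap was widest at 31 nt. At 27 nt, 72.4% of SG reads began with U, against 77.1% and 76.3% in LZ. At 31 nt the share was 40.3% in SG, 69.9% in LZ replicate 1 and 59.9% in LZ replicate 2, and 87.2% in PD. At 31 nt most SG reads therefore began with another base, whereas most LZ reads began with U. The counting error of such a share is small (at most 0.303 points either way, 95% Wilson half-width, for counting error only), so the difference between the LZ replicates is the larger error. At 31 nt the gap of the LZ mean to SG was 24.6 points over reads and 8.48 points over distinct sequences. It was 15.5 points with the sequences that PD held in 10 or more reads left out. Without the 100 most read sequences of 24 to 33 nt it was 19.18 points. A 31-nt fragment of the small noncoding RNA Rny1 (1673 RPM in SG) and a 31-nt sequence that matched no transcript (1024.5 RPM in SG) begin with G. Both were far lower in both LZ libraries, and their own part in the gap was not tested. Counted over distinct sequences, the direction turned at 26, 27 and 28 nt, where the LZ mean minus SG was -0.565, -0.890 and -0.294 points. Without those PD sequences it turned at 27 and 28 nt.

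The origin of the 24 to 33 nt reads shifted from annotated transcripts to sequence outside them. Reads whose first 24 nt matched an annotated transcript in sense, other than miRNAs and small noncoding RNAs, made up 37.1% in SG, 22.6% in LZ replicate 1, 28.2% in LZ replicate 2 and 12.5% in PD. Reads that matched no transcript on either strand made up 46.0%, 67.9%, 58.3% and 83.7%. Such reads can come from unannotated piRNA loci, from repeats and from other RNAs that the annotation lacks, and the LZ libraries lay between SG and PD. Within these reads, 59.6% began with U in SG, against 77.0% and 73.7% in LZ. Those most read in SG included sequences of 24 nt (1287.7 RPM, then 1057.5 and 781.2 RPM in LZ) and 31 nt (1024.5 RPM, then 1.00 and 3.26 RPM). Another, of 25 nt, was split (1018.9 RPM, then 1246.6 and 932.0 RPM). The origin of these sequences was not tested. Reads of small noncoding RNAs (snoRNA, snRNA, Y RNA and similar classes) fell from 11.5% to 6.61% and 9.53%. Of these, 38.0% began with U in SG and 36.3% and 35.2% in LZ, and their part in the lower U share of SG was not tested.

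Reads that began with U and matched 1 gene in sense were summed over genes. Of 255 genes that reached 50 RPM in SG or in the LZ mean, 44 (17.3%) were over 2-fold higher in LZ and 23 (9.02%) were over 2-fold lower, with both LZ libraries on that side. A gene that reached the floor in 1 stage alone mostly had to differ: 34 of the 44 reached it only in LZ and 19 of the 23 only in SG. Of the 135 genes that reached it in both stages, 10 were over 2-fold higher and 4 lower. Of the 43 genes that the annotation classes as noncoding or leaves unclassified, 34 were over 2-fold higher and 0 were over 2-fold lower. Of the 212 protein-coding genes, 10 were over 2-fold higher and 23 lower, and 180 were lower in both LZ libraries by any amount. Among genes at the floor in both stages, 5 of 14 noncoding and 5 of 121 protein-coding genes were over 2-fold higher. The median log2 ratio over all 255 genes was -0.49. The choice to sum over genes was made after the sequence lists had been seen.

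Noncoding genes in 2 neighbourhoods gave the 3 largest sums among the genes that rose. On chromosome 17 (GRCm38), Gm49793 (27308316 to 27318696, minus strand), Gm10505 (27325035 to 27344833, plus strand) and Gm49794 (27354111 to 27367492, plus strand) follow each other within a short stretch. Gm49794 stood at 375.9 RPM in SG, 8261 RPM in LZ replicate 1 and 5268 RPM in LZ replicate 2, a 17.995-fold rise, and at 13800 RPM in PD. Gm10505 stood at 120.2 RPM in SG and 2018 and 1621 RPM in LZ, a 15.1-fold rise, and at 1900 RPM in PD. Gm49793 stood at 11.9, 327.8, 187.9 and 633.7 RPM. All 3 neighbours were higher in both LZ libraries, but Gm49793 reached the floor of 50 RPM only in LZ and was listed only because it was high there. Gm10505 had reached its PD level in LZ (ratio of LZ to PD 0.958), whereas Gm49793 and Gm49794 had reached 0.407 and 0.490 of theirs. On chromosome 7, Gm10619 (73781429 to 73816503, minus strand) and Gm21269 (73816546 to 73838898, plus strand) lie head to head and leave the same short interval in opposite directions. Gm21269 stood at 109.3 RPM in SG, 2282 and 1248 RPM in LZ and 8331 RPM in PD. Gm10619 stood at 36.1 RPM in SG, 610.8 and 366.7 RPM in LZ and 2472 RPM in PD, so that both arms were at close to the same fraction of PD (0.212 and 0.198). Gm10619, too, reached the floor only in LZ.

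Other noncoding genes spanned a wide range of ratios. Gm5878 on chromosome 6 rose 13.6-fold, from 26.1 RPM to 474.3 and 235.9 RPM, but its PD level of 3276 RPM was far above. The gene 1700001L05Rik on chromosome 15, already at 290.1 RPM in SG, rose 4.71-fold to 1620 and 1112 RPM. Over the 44 genes the ratio of the LZ mean to PD ran from 0.104 to 7.50 with a median of 0.227, and 41 of them were higher in PD than in LZ. LZ replicate 1 exceeded replicate 2 in 39 of the 44, and the median ratio of replicate 2 to replicate 1 was 0.629, against 1.12 over all 255 genes.

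**Figure D2:**
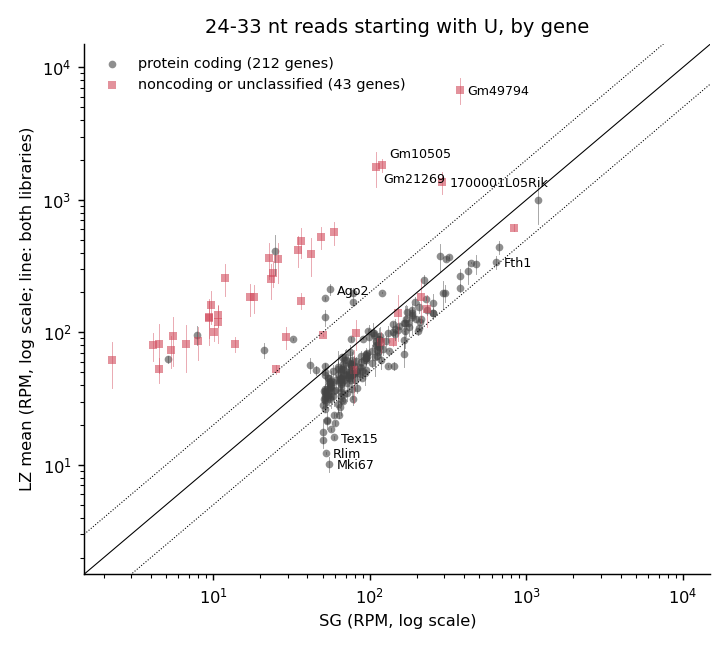
Summed RPM of 24 to 33 nt reads beginning with U for each of 255 genes, SG (horizontal) against the LZ mean (vertical), both on log scales, with vertical lines joining the 2 LZ replicates, the solid line for equality and dotted lines for 2-fold. Most noncoding genes (squares) lie above the upper dotted line, and most protein-coding genes (circles) lie between equality and the lower dotted line.

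Protein-coding genes that rose included Ago2, which encodes the slicing Argonaute of the microRNA pathway. Its reads stood at 55.8 RPM in SG, 231.6 and 191.8 RPM in LZ and 910.7 RPM in PD. Asb1 (51.4 RPM in SG, 185.9 and 175.1 RPM in LZ), Nemp1, a gene of the nuclear envelope (77.8, 215.2 and 180.3 RPM), and Tbl2 (77.8, 178.0 and 158.2 RPM) followed it, with 831.1, 1291 and 787.9 RPM in PD. These 4 genes rose between 2.16-fold and 3.80-fold. Canx, which encodes the endoplasmic reticulum chaperone calnexin, differed from them. It went from 5.12 RPM to 59.1 and 66.2 RPM and stood at 8.35 RPM in PD, so it was high in LZ and low on both sides of it. Tmem72 (21.1 RPM in SG, 63.9 and 82.7 RPM in LZ, 57.2 RPM in PD) and the unclassified or noncoding Gm47652 were the others of the 44 whose LZ mean exceeded PD. Tmem72 also reached the floor only in LZ.

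Of the 19 genes that fell over 2-fold and reached the floor only in SG, 5 are given here as examples, chosen after their values were seen. Mki67, the proliferation antigen, had 55.0 RPM in SG and 11.5 and 8.88 RPM in LZ. Cenpf, which encodes a kinetochore protein, had 50.5 RPM in SG and 14.6 and 16.1 RPM in LZ. Tex15, which encodes a nuclear factor of piRNA-directed silencing, had 58.9 RPM in SG and 16.5 and 15.8 RPM in LZ. Lin28b, which encodes an RNA-binding protein that blocks let-7 maturation, had 56.8 RPM in SG and 18.2 and 18.9 RPM in LZ. Rlim, an X-linked ubiquitin ligase gene, had 52.4 RPM in SG and 12.2 and 12.5 RPM in LZ. The LZ replicates lay close together for these 5 genes, whose ratios ran from 0.185 to 0.326. The 4 genes that fell over 2-fold and reached the floor in both stages were Hjurp, Zfp398, Ddx11 and Rplp1. Genes of larger sums fell less than 2-fold. Fth1, encoding ferritin heavy chain, had 644.5 RPM in SG and 303.0 and 377.2 RPM in LZ, and Abl2, encoding a tyrosine kinase, had 665.2 RPM in SG and 391.4 and 490.5 RPM in LZ. In PD all 23 genes that fell were below their LZ mean. Fragments of the messenger RNAs that are no piRNAs may be part of these sums, and their part was not tested.

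Summed over the rising genes, the LZ reads had a length profile closer to that of SG than to that of PD. Over the 44 genes together the most frequent length was 26 nt in SG and in both LZ libraries and 30 nt in PD. Reads of 25 to 28 nt made up 67.1% in SG, 65.0% and 66.9% in LZ and 39.0% in PD. For Gm49794 the share was 69.9% in SG, 71.4% and 74.3% in LZ and 50.1% in PD, and for Gm10505 it was 74.1%, 75.4%, 78.1% and 63.7%. In 43 of the 44 genes both LZ libraries had a larger share of 25 to 28 nt reads than PD. Some of the 44 genes, noncoding and coding, lay between the stages. For the noncoding Cep83os the share was 48.4% in SG, 37.4% and 37.2% in LZ and 21.1% in PD, and for Nemp1 the share was 73.6% in SG, 50.1% and 56.9% in LZ and 22.2% in PD. The part that PD cells within the LZ gate may have in these values was not tested.

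**Figure D3:**
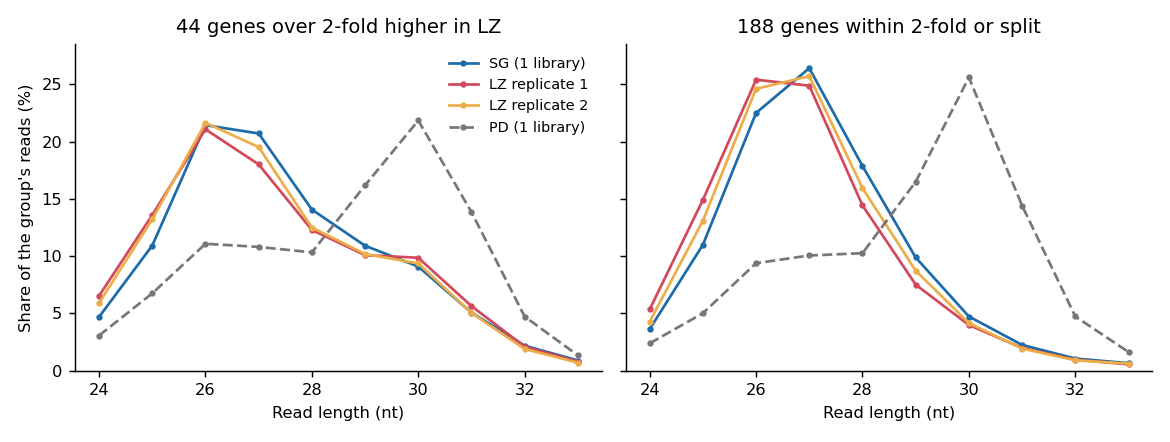
Length in nt (horizontal) of the 24 to 33 nt reads beginning with U, as a share of the reads of the gene group in percent (vertical), for the 44 genes over 2-fold higher in LZ (left) and the 188 genes in neither group (right), with 1 line per library and PD dashed. In the left panel SG and both LZ lines peak at 26 nt and PD peaks at 30 nt.

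Among retrotransposons, the entries that rose over 2-fold in total reads were all long terminal repeat (LTR) elements. LTR retrotransposons are endogenous retroviruses and their relatives, whereas LINE (long interspersed) elements such as L1 encode their own reverse transcriptase and SINE (short interspersed) elements depend on that of LINEs. RPM values of 24 to 33 nt reads mapped to consensus sequences were read for 262 retrotransposons, of which 87 reached 10 RPM in SG or in the LZ mean (1 RPM in SG is about 13.3 reads). Of these, 24 (27.6%) were over 2-fold higher in LZ and 1 (1.15%) was over 2-fold lower. All 24 are among the 64 LTR entries, while 0 of 17 LINE and 0 of 6 SINE entries were over 2-fold higher. The LINE entry Lx3_Mus_3end came close, at 22.8 RPM in SG and 41.7 and 46.3 RPM in LZ (1.93-fold), and its sense reads passed 2-fold. Of the 24, 13 reached the floor only in LZ, and of the 67 entries that reached it in both stages 11 were over 2-fold higher and 0 lower. Under rescaling to miRNA reads 38 of all entries were over 2-fold higher.

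RMER17A2, an LTR, showed the largest log2 ratio. It stood at 46.4 RPM in SG, 620.8 RPM in LZ replicate 1, 431.3 RPM in LZ replicate 2 and 1377 RPM in PD. The gain was mainly of sense reads, from 34.1 RPM to 523.9 and 346.0 RPM, against 12.3 to 97.0 and 85.3 RPM in antisense. LTRIS4, at 1.54 RPM in SG and 28.1 and 18.3 RPM in LZ, and RLTR43C, at 0.970 RPM in SG and 14.3 and 9.91 RPM in LZ, also gained almost wholly in sense. Their antisense reads were near 0 in SG and LZ, as the plot of both strands shows.

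The other large ratios were gains of antisense reads, the strand that is complementary to retrotransposon messenger RNA. IAPLTR2b, an LTR of the intracisternal A particle (IAP) family, had 79.3 RPM of antisense reads in SG, 840.5 RPM in LZ replicate 1 and 529.7 RPM in LZ replicate 2, an 8.64-fold rise, and 1633 RPM in PD. Its sense reads, at 26.5 RPM in SG and 19.7 and 39.0 RPM in LZ, were split around SG. ERVB5_2-LTR_MM had 2.35 RPM of antisense reads in SG and 30.6 and 19.2 RPM in LZ. MERV1_I (2.54 RPM, then 26.6 and 15.8 RPM), RLTR9A (3.54 RPM, then 34 and 12.3 RPM) and ERVB4_2-I_MM (3.13 RPM, then 22.1 and 15.95 RPM) had the same pattern. RLTR30B_MM went from 0.970 to 17.7 and 7.59 RPM in antisense. Antisense reads of these 6 were below the floor of 10 RPM in SG in all but IAPLTR2b, and all stood higher still in PD. The part of PD cells within the LZ gate in these gains was not tested.

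**Figure D4:**
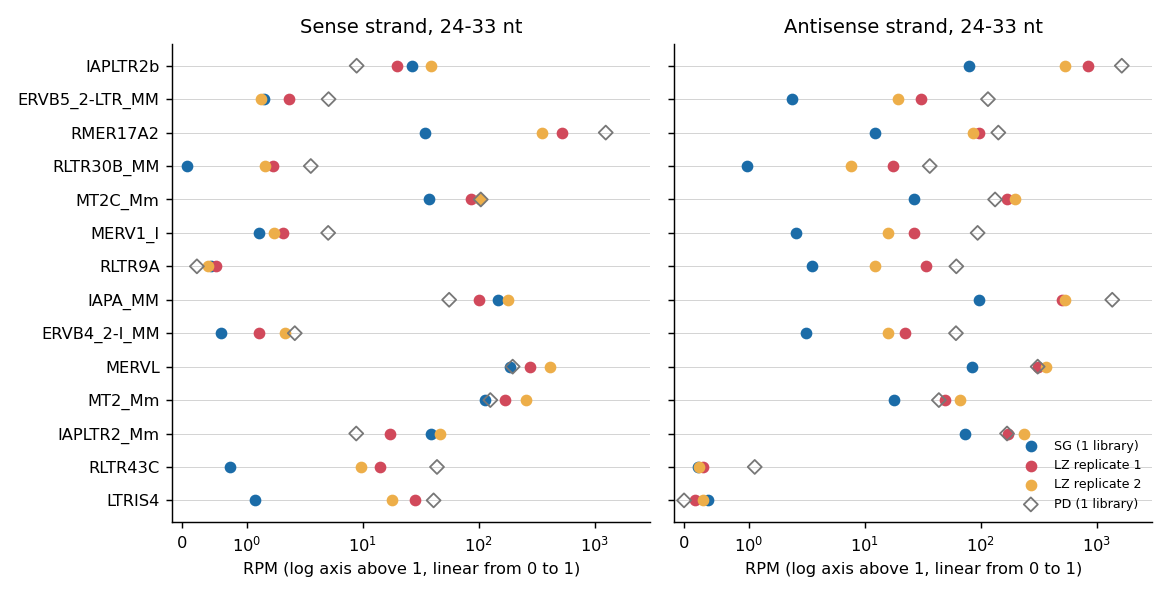
RPM of 24 to 33 nt sense reads (left) and antisense reads (right) for the 14 named LTR retrotransposons that were over 2-fold higher in LZ, on an axis that is logarithmic above 1 RPM and linear below, with 1 point per library and PD as open diamonds. On the antisense side both LZ points lie right of SG in all but LTRIS4, where they lie left of it, and the gap is slight in RLTR43C.

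Of the 24 LTR entries that rose, 15 gained more RPM in antisense than in sense. Antisense reads alone were over 2-fold higher for 19 of 66 entries (28.8%) and over 2-fold lower for 1 (1.52%). Sense reads alone were over 2-fold higher for 14 of 67 entries (20.9%) and over 2-fold lower for 0 (0%). Of the antisense risers 8, and of the sense risers 8, reached the floor only in LZ. Among entries at the floor in both stages, 11 of 54 in antisense and 6 of 56 in sense were over 2-fold higher, with 0 lower on either strand. All 24 were higher in PD than in SG, and 16 were also higher in PD than in LZ. LZ replicate 1 exceeded replicate 2 in 11 of the 24 and in 12 of all 87, so nearly all entries in which it did so were among the risers. The replicates lay close together for RMER17B2 (9.81 RPM in SG, 30.03 and 33.96 RPM in LZ) and RLTR45-int (3.60 RPM in SG, 9.51 and 10.97 RPM in LZ).

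IAP elements are among the youngest and most mobile retroviruses of the mouse. The sum of 15 IAP LTR entries rose from 906.0 RPM in SG to 1720 and 1849 RPM in LZ. Antisense reads of these entries went from 381.6 to 1298 and 1173 RPM, whereas sense reads were 524.4 RPM in SG and 422.3 and 676.1 RPM in LZ. The antisense share thereby went from 42.1% to 75.4% and 63.4%, with 94.9% in PD. This gain of 27.3 points was 13.9 points without the most abundant member and 5.31 points as an unweighted mean over members, and the share of IAPLTR1_Mm and of IAPLTR1a_Mm was lower in both LZ libraries. In the 10 internal IAP entries the sum was split around SG, but the antisense reads rose in both LZ libraries, from 2459 to 3423 and 5061 RPM. IAPA_MM showed the largest change of antisense share among the 41 retrotransposons of at least 50 RPM in every library. Its antisense share was 39.8% in SG, 83.4% and 74.7% in LZ and 96.1% in PD, made by an antisense rise of 5.31-fold (96.6 to 499.0 and 526.5 RPM) over sense reads that were split around SG (146.2 RPM, then 99.4 and 178.8 RPM).

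MERVL and its LTR MT2_Mm, elements best known from the early embryo, rose on both strands. MERVL antisense reads went from 83.6 to 311.6 and 364.1 RPM, and its sense reads from 184.1 to 273.7 and 412.0 RPM. MT2C_Mm, a related LTR, went from 26.6 to 166.8 and 196.4 RPM in antisense and from 37.2 to 84.8 and 102.7 RPM in sense. PD did not exceed LZ in these 3 in total reads (503.7, 168.9 and 236.3 RPM in PD for MERVL, MT2_Mm and MT2C_Mm), unlike in IAPLTR2b or RMER17A2. MT-int and MTA_Mm, of the MaLR group of the same class of retroviruses, did not join them: MT-int had 1506 RPM in SG and 780.1 and 1347 RPM in LZ, and MTA_Mm (900.2 RPM, then 492.8 and 960.1 RPM) was split.

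ETn elements went the opposite way by strand. They are nonautonomous elements that depend on the proteins of related retroviruses. The sense reads of the 5 ETn entries rose 4.75-fold, from 26.5 RPM to 97.0 and 155.1 RPM, while antisense reads were split around SG (88.9 RPM, then 77.9 and 212.6 RPM). The antisense share fell from 77.0% to 44.5% and 57.8%, with 24.3% in PD. ETnERV alone went from 87.7% to 65.9% and 75.2%, and MuRRS-int, a class I retrovirus, from 80.1% to 55.4% and 68.8%. MMERVK10C rose on both strands, from 174.0 to 192.5 and 318.6 RPM in sense and 2.64-fold, from 31.9 to 80.01 and 88.3 RPM, in antisense. Of the 7 entries at the floor in the MMERVK10 and RLTR10 family, 4 were higher in both LZ libraries and 0 were lower. The LTR entry RLTR10 was split at 29.5 RPM in SG and 22.2 and 76.9 RPM in LZ. RLTR10C rose from 37.3 to 59.95 and 52.9 RPM. Its antisense reads went from 6.02 RPM, below the floor, to 37.6 and 23.4 RPM, while its sense reads were lower in both LZ libraries. MMERGLN-int was under 5 RPM in the SG and LZ libraries.

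The entry that fell over 2-fold was ERVB4_2-LTR_MM, the LTR whose internal part, ERVB4_2-I_MM, rose. It had 24.2 RPM in SG and 5.75 and 13.9 RPM in LZ, nearly all in antisense, with 0.410 RPM in PD. RLTR45 fell from 30.3 to 13.3 and 18.5 RPM, while its internal part RLTR45-int rose. Both internal parts reached the floor only in LZ and ERVB4_2-LTR_MM only in SG, and the latter was no longer over 2-fold lower without LZ replicate 1 or with a pseudocount of 5 RPM.

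LINE and SINE reads were lower in LZ, but the LZ libraries differed widely, and rescaling to miRNA reads turned the direction of both classes. The 19 LINE entries summed to 11492 RPM in SG, 4403 RPM in LZ replicate 1 and 10637 RPM in LZ replicate 2, so that replicate 2 differed little from SG. The LINE sum was lower in sense (6789 RPM, then 2406 and 5813 RPM) and split in antisense (4703 RPM, then 1998 and 4824 RPM). Of the 17 LINE entries at the floor, 6 were lower in both LZ libraries in total reads and 1 was higher. L1_Mm_orf2 had 2864 RPM of sense reads in SG and 864.1 and 2192 RPM in LZ, and L1_Mus3_orf2 had 2772 RPM in total in SG and 1008 and 2457 RPM in LZ. Of 9 entries for 3′ ends, 4 were lower in both LZ libraries (among them L1Md_T_3end, 684.8 RPM, then 298.2 and 617.2 RPM), 1 was higher and 4 were split. The 5′ ends, which hold the promoters of the active subfamilies, were split. L1Md_A_5end had 144.9 RPM in SG and 80.9 and 212.6 RPM in LZ, and L1Md_Gf_5end had 75.8 RPM in SG and 34.4 and 122.9 RPM in LZ. L1Md_F_5end, at 49.3 RPM in SG and 20.8 and 61.3 RPM in LZ, was split in the same way, and 0 of 5 entries for 5′ ends had both LZ libraries on 1 side.

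All 6 SINE entries were lower in both LZ libraries in RPM. Their sum had a log2 ratio of -0.52 in RPM and of 0.22 after rescaling to miRNA reads. The class sum fell in sense, from 5566 to 2965 and 3867 RPM, and was split in antisense (2067 RPM, then 1604 and 2216 RPM). The antisense sum of B1 alone was lower in both LZ libraries (1852 RPM, then 1311 and 1829 RPM), slightly so in replicate 2. B2 elements, the tRNA-derived SINEs, gained antisense reads while losing sense reads. B2_Mm1a had 51.0 RPM of antisense reads in SG and 79.0 and 109.8 RPM in LZ, against 1410 RPM of sense reads in SG and 748.3 and 837.8 RPM in LZ. B2_Mm2 had 116.7 RPM of antisense reads in SG and 145.3 and 194.7 RPM in LZ.

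Across the classes the antisense share rose more among 28 to 33 nt reads than among 24 to 27 nt reads for LINEs and SINEs, but not for LTR elements. For SINEs the share at 28 to 33 nt was 27.4% in SG and 44.2% and 42.8% in LZ, and at 24 to 27 nt it was 26.95%, 31.2% and 33.7%. For LINEs it was 34.6%, 43.0% and 41.5% at 28 to 33 nt, and 47.1%, 47.4% and 49.1% at 24 to 27 nt. For LTR elements it was 32.4%, 49.2% and 41.5% at 28 to 33 nt and 27.7%, 48.8% and 40.1% at 24 to 27 nt. Among the 41 retrotransposons of at least 50 RPM in every library, the antisense share was higher in both LZ libraries for 29 and lower for 8, with a median change of 6.52 points. An unweighted mean over the LTR entries of at least 10 RPM changed by only 0.339 points, so the gain of the LTR class sum of 15.0 points rested on its abundant members.

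Retrotransposon reads shorter than piRNAs changed most in SINEs. Antisense SINE reads of 19 to 23 nt, the size of microRNAs and of small interfering RNAs, summed to 17697 RPM in SG and to 5761 and 6111 RPM in LZ, 0.335 of the SG level, with 653.0 RPM in PD. Nearly all of these were B1 reads (17040 RPM, then 5372 and 5621 RPM). B2 reads went from 657.0 to 388.4 and 489.8 RPM, 0.668 of the SG level. Sense SINE reads of this size fell from 5301 to 2808 and 2813 RPM. The LZ replicates were nearly equal here, unlike in the piRNA range. LTR reads of this size rose slightly, from 2079 to 2516 and 2698 RPM in sense and from 1392 to 1703 and 1939 RPM in antisense.

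MicroRNAs, the Argonaute-bound regulators of messenger RNA, were lower in LZ almost throughout, among those with a RefSeq entry. A 24-nt sequence with the miR-30 seed GTAAACA matched no entry and was nearly level (2451 RPM in SG, 2448 and 2405 RPM in LZ). The miRNA counts, ranks and totals, also those used for rescaling, leave it out. A mature miRNA sequence of RefSeq, whole or up to 2 nt longer or shorter at its 3′ end, accounted for 11.9% of SG reads, 5.82% and 8.51% of LZ reads and 0.727% of PD reads. Of 78 miRNAs that reached 100 RPM in SG or in the LZ mean, 71 were lower in both LZ libraries, 1 was higher and 6 were split. Over 2-fold lower were 32 (41.0%) and over 2-fold higher 0 (0%). Scaled to the miRNA reads of each library, 34 were lower in both LZ libraries and 17 higher, and 12 and 1 passed 2-fold. Of the 32, 18 reached the floor only in SG. The sequences below, from RefSeq (GRCm38.p6), are those of the most abundant miRNAs and of the largest falls, with the seed (bases 2 to 8, which pair with targets) in capitals.
miR-881-3p: aACTGTGTcttttctgaataga
miR-871-3p: tGACTGGCaccattctggataat
miR-7a-5p: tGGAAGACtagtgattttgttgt
miR-465c-5p: tATTTAGAatggcgctgatctg
miR-465b-5p: tATTTAGAatggtgctgatctg
miR-202-5p: tTCCTATGcatatacttcttt
let-7b-5p: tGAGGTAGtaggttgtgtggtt
let-7c-5p: tGAGGTAGtaggttgtatggtt
miR-125b-5p: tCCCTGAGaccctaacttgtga
miR-99a-5p: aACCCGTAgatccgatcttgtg

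The 2 most abundant of the counted miRNAs came from the X chromosome and fell less than 2-fold. miR-881-3p stood at 18630 RPM in SG and 12581 and 17115 RPM in LZ, and miR-871-3p at 10816 RPM in SG and 8503 and 9044 RPM in LZ. The 3 members of at least 100 RPM with the seed ATTTAGA (miR-465a-5p, miR-465b-5p and miR-465c-5p) summed to 17192 RPM in SG and 8187 and 12486 RPM in LZ. miR-741-3p (5033 RPM, then 2711 and 4210 RPM) and miR-470-5p (5216 RPM, then 2855 and 3475 RPM) belong to the same chromosome. Of the 21 miRNAs encoded on X alone, 3 were over 2-fold lower, against 29 of the other 57, and the medians of the log2 ratio were -0.70 and -1.02. The X-encoded miRNAs made up 57.9% of the reads of the 78 in SG, 67.8% and 66.0% in LZ and 51.2% in PD.

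Among the other 57 miRNAs the largest falls were in the let-7, miR-125 and miR-99 groups and in miR-202. miR-7a-5p, among the 3 most abundant of the counted miRNAs, fell from 10998 RPM to 2569 and 4205 RPM, with 38.4 RPM in PD. The 7 let-7 members, which share the seed GAGGTAG, summed to 8310 RPM in SG and 3289 and 3339 RPM in LZ. Within the family let-7c-5p went from 819.3 to 147.7 and 141.8 RPM, whereas let-7a-5p went from 1515 to 995.5 and 871.3 RPM. miR-99a-5p fell from 1180 RPM to 135.2 and 271.5 RPM, miR-125b-5p from 163.4 to 16.0 and 37.5 RPM, and let-7b-5p from 115.6 to 16.1 and 19.6 RPM. miR-202-5p, the largest fall, went from 180.9 RPM to 14.1 and 33.2 RPM. miR-148a-3p fell from 4062 to 1461 and 2060 RPM and let-7f-5p from 2918 to 1385 and 1173 RPM. At the other end, miR-30a-5p (3283 RPM, then 3104 and 3845 RPM), miR-191-5p, miR-146b-5p and miR-10a-5p were split, and miR-30a-3p rose from 127.4 to 149.3 and 170.4 RPM.

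**Figure D5:**
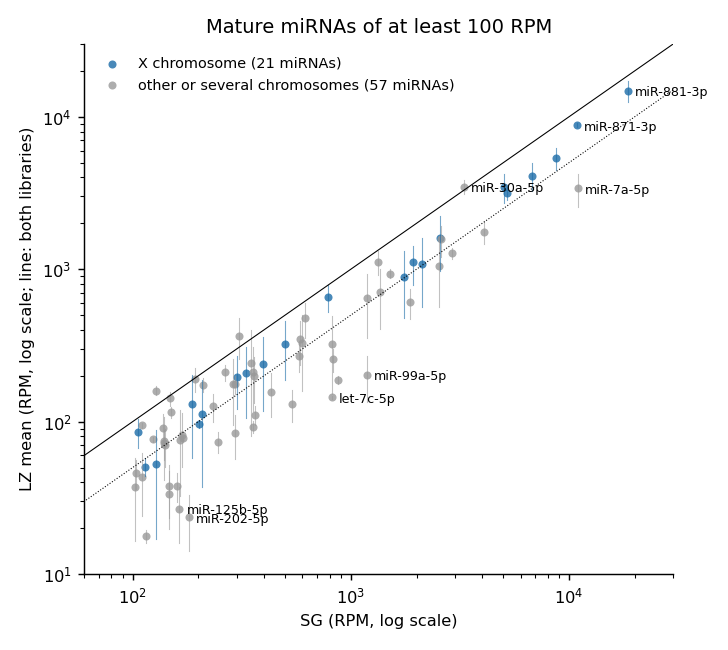
RPM of 78 mature miRNAs in SG (horizontal) against the LZ mean (vertical), both on log scales, with vertical lines joining the 2 LZ replicates, the solid line for equality and the dotted line for 2-fold lower. The miRNAs of the X chromosome (blue) lie mostly between the lines, and miR-202-5p, miR-125b-5p, miR-99a-5p and let-7c-5p lie far below the dotted line.

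miRNAs taken here as markers of other cells moved with these falls. miR-202, listed for Sertoli cells, stood at 188.4 RPM in SG against 15.5 and 34.5 RPM in LZ and 0.602 RPM in PD. miR-126a, listed for endothelial cells, stood at 167.6 RPM in SG against 50.6 and 113.6 RPM in LZ. Of the 5 blood markers 3 were lower in both LZ libraries and 1, miR-150, was near 0 in all, and their sum was 15.1 RPM in SG and 1.74 and 6.42 RPM in LZ. The erythrocyte miR-451a alone was 7.23 RPM in SG and 0.134 and 0.0573 RPM in LZ. The part of such cells in the miRNA falls was not tested, nor was whether spermatogonia themselves hold these miRNAs. The RefSeq entries used held no mature sequence for the smooth muscle and liver markers (miR-143, miR-145a, miR-122) or for miR-449b, so these could not be measured. The spermatocyte markers rose in 3 of the 4 that had an entry. miR-449a went from 4.52 to 26.7 and 40.0 RPM and miR-34b from 2.41 to 15.2 and 21.7 RPM, with 85.5 and 35.7 RPM in PD, and for miR-34c (0.376 RPM, then 3.04 and 4.30 RPM) only the 3p arm had an entry. The remaining one, miR-449c, was at or near 0. Of the 10 spermatogonial or mitotic markers 4 were lower in both LZ libraries, 1 was higher (miR-146a, 14.9 RPM, then 39.5 and 95.1 RPM) and 5 were split.

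Among single sequences of 24 to 33 nt, a fragment of a structured RNA showed the largest fall. It is a 31-nt fragment of Rny1, a small noncoding Y RNA that is bound by the Ro60 protein, and was among the 5 most read sequences in SG. It stood at 1673 RPM in SG, 15.6 and 28.01 RPM in LZ and 1.43 RPM in PD. A second 31-nt sequence, which matched no mouse transcript used here, went from 1024.5 RPM to 1.00 and 3.26 RPM. It is not known to be a mouse sequence, and its origin was not tested. The most read sequence in both stages is the 24-nt sequence with the miRNA seed GTAAACA, given above as matching no miRNA entry. It was nearly level over the 3 libraries (2451, 2448 and 2405 RPM), and whether it is a miRNA was not tested. Among the 5 largest rises in RPM were a fragment of the mitochondrial tRNA gene mt-Ts2 (340.2 RPM in SG, 805.0 and 671.6 RPM in LZ) and a pair of sequences that begin with U, matched no transcript and have no genome position here. They are printed because they rose most among sequences that begin with U.
Rising sequence of 26 nt: Tgatagctgagctctgagtaggtagt
Rising sequence of 29 nt: Tttgaaatcaggactgttctggaaattcc
The first stood at 10.2 RPM in SG, 355.5 and 159.5 RPM in LZ and 760.1 RPM in PD. The second stood at 13.9 RPM in SG, 281.9 and 132.3 RPM in LZ and 2871 RPM in PD, far above the LZ mean.

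Of the 24 to 33 nt reads, 52.9% in LZ replicate 1 and 53.5% in LZ replicate 2 had a sequence that also occurred in SG, and 66.3% of SG reads had a sequence that occurred in LZ. By distinct sequences the overlap was 10.1% and 13.6% of the LZ sequences and 30.8% of the SG sequences. With 3963358 reads drawn from each library, the number in SG, it was 15.6% and 16.6% of LZ sequences and 22.6% of SG sequences, while the shares of LZ reads hardly moved (52.9% and 53.4%). At this depth a sequence read once or a few times can be missed in another library, so these shares do not show that a sequence is absent from a stage.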

How the data were processed

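Small RNAs of sorted germ cells were sequenced with a TruSeq Small RNA kit. The authors, per the submitters' processing notes, used cutadapt (version not given in the sources used here) and deposited lists of distinct sequences with raw read counts. From these they removed abundant noncoding RNAs and miRNAs and used SeqMap (2 mismatches allowed) to place the rest on consensus sequences of retrotransposons, dividing reads that fitted several sequences, and deposited RPM values (reads per 1000000 reads) per strand and length class. One line at the end of the SG list had no count and was dropped. RPM from the lists used the list total.

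Ratios are log2((LZ mean + 1)/(SG + 1)), for retrotransposons of at least 10 RPM, miRNAs of at least 100 RPM and genes of at least 50 RPM in SG or in the LZ mean. Folds printed are the LZ mean over SG without the added 1. Satellites and noncoding RNA rows were left out. miRNAs were matched exactly to 1738 RefSeq entries (GRCm38.p6), and a miRNA without an entry there was not counted. For gene assignment, added after the data had been seen, the first 24 nt were matched to GENCODE M21 transcripts (GRCm38) without mismatch. Sequences that matched several genes were left out of the gene sums. Repeats inside transcripts can place a read in the wrong gene.

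Named retrotransposons were the 3 most abundant of each class, the 10 largest and 5 smallest ratios with both LZ libraries on 1 side, the 5 largest and smallest changes of antisense share and a fixed list. Named miRNAs were the 10 most abundant and the 5 largest and smallest ratios, and named sequences the 5 most read and the 5 largest rises and falls. Genes, other LTR entries and other miRNAs were named after their values were seen. Members and lists were chosen with earlier results of these data known. Calls were tested on simulated data. Python 3.11.15, pandas 2.3.3, numpy 2.4.6 and numba 0.67.0 were used.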

Additional observations from a re-analysis of the deposited data

How the results depend on the processing

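With 1 SG library no spread between SG samples is known, and LZ replicate 1 was low for LINE reads and high for the noncoding piRNA genes. Of 24 retrotransposons over 2-fold higher and 1 lower, rescaling to miRNA reads gave 38 and 0, a floor of 1 RPM gave 37 and of 50 RPM gave 11 higher and 0 lower, a threshold of 1.5-fold gave 6 lower, a pseudocount of 5 RPM gave 0 lower, and reads of all lengths, which for LTR are mostly of 11 to 18 nt, gave 6 higher and 27 lower. Without an LZ replicate the lower counts ran from 0 to 14 in total and from 0 to 8 in antisense (main count 1), and up to 18 in sense (main count 0). Without replicate 1 the higher counts were 28 in total, and without replicate 2 they were 20. Rescaling to miRNA reads gave 24 higher in sense and 0 lower in antisense. The same rescaling reversed the log2 ratio for LINE (0.054), SINE (0.22), B1 (0.26), B2 (0.17) and L1 3′ ends (0.23) and moved LTR to 1.03. With all lengths LTR gave -0.19 and SINE -0.95, and the ratio reversed for ERVB (-0.74), ETn (-0.014), MMERVK10 and RLTR10 (-0.16), class I (-0.51) and other LTR (-0.11). The antisense share of LINE moved from 4.44 to 3.92 points as a mean over members and 4.36 without the most abundant one, that of SINE from 8.70 to 9.92 without it, and that of LTR from 15.0 to 0.339 as a mean over members. The 24 to 33 nt share rose by 3.57 points over distinct sequences (12.4 over reads). The U share rose by 1.41 points over distinct sequences and 2.29 without PD sequences (7.64 over all reads), and reversed over distinct sequences at 26 nt (-0.565), 27 nt (-0.890) and 28 nt (-0.294) and without PD sequences at 27 nt (-0.804) and 28 nt (-0.712). Of 32 miRNAs lower and 0 higher, 12 and 1 were past 2-fold when scaled to miRNA reads, and without an LZ replicate there were 20 to 56 lower and 0 to 1 higher. The share of LZ reads also in SG was 73.4% by the first 20 nt (53.2% by whole sequences). A floor of 10 RPM, added after seeing the data like the other alternatives for genes, gave 92 genes higher and 172 lower, and without an LZ replicate the lower genes ran from 20 to 37 (main count 23) and the higher from 41 to 46 (main count 44). The cause was not tested. No paired analysis was possible because SG has 1 library. Of 99 results counted as main comparisons under an alternative, 62 moved by less than the spread between LZ libraries or stayed within 1.5 times the count.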
